A study of Mus musculus with 6 samples.

Results

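The Nr4a orphan nuclear receptor genes and the immediate early genes of the AP-1 and Egr families were followed in dermal cells treated with a pair of small molecules. The 10 genes were chosen by name: Nr4a1, Nr4a2, Nr4a3, Fos, Fosb, Fosl1, Fosl2, Jun, Junb and Egr1. Each of the 10 had 1 probe set annotated to it alone, out of 19938 genes measured, so no choice between probe sets was needed. The cells came from skin of neonatal C57BL/6 mice, and no genetic alteration is named in the labels. Total RNA was hybridised to 6 one-colour Affymetrix arrays, 3 labelled DMSO, after the solvent, and 3 labelled FR. Per the series design, the FR cells received forskolin and RepSox together, each at 20 µM, for 2 days. Forskolin activates adenylyl cyclase, the enzyme that makes cyclic AMP, and RepSox inhibits the kinase of the TGF-β type I receptor. Neither compound was given alone, so their separate effects cannot be told apart, and a single time point was sampled. Nothing in the labels tells whether replicates were separate cultures or animals, and the p-values therefore cover the spread between these 3 samples a group, which may be technical.

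Immediate early genes are switched on within minutes by growth factors, stress or cyclic AMP, without new protein synthesis, and most of their messages are short-lived. Cyclic AMP acts through protein kinase A and the factor CREB, which binds the cyclic AMP response element (CRE), while growth factor and actin signals act through serum response factor (SRF) at the CArG box. The Fos and Jun proteins pair through leucine zippers to form AP-1, and the Nr4a proteins are nuclear receptors without a known physiological ligand that act as constitutive regulators once they are made. In fibroblasts these genes are best known from the response of resting cells to serum.

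The stretches before the annotated starts of the 3 Nr4a genes are shown because these genes moved together, and that of Fos because it has the same motif and did not pass the test. Sequences are from RefSeq (GRCm38.p6), whose promoter table held 8 of the 10 genes. Each runs 5′ to 3′ in the sense of the gene over the 250 bases before the start, with capitals marking the CRE half-site (TGACG, or CGTCA on the other strand). The start used for Nr4a1 lies inside a longer RefSeq gene model, and the Nr4a3 gene model begins within the stretch shown.
Nr4a1, chr15:101266596-101266845, plus strand: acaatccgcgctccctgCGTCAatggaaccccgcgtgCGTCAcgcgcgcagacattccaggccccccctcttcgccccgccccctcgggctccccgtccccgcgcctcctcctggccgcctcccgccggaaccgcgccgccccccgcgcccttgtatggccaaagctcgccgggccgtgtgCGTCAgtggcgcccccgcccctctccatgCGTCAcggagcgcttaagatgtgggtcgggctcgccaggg
Nr4a2, chr2:57124004-57124253, minus strand: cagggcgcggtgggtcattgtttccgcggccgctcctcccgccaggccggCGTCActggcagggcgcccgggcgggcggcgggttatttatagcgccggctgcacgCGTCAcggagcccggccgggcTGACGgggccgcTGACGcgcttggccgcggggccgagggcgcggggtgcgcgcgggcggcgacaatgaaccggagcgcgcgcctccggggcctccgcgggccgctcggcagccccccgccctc
Nr4a3, chr4:48045055-48045304, plus strand: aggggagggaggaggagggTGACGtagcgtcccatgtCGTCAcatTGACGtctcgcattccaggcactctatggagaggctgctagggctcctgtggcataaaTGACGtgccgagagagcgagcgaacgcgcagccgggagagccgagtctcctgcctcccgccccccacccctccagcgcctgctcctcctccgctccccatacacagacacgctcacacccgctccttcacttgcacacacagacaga
Fos, chr12:85473640-85473889, plus strand: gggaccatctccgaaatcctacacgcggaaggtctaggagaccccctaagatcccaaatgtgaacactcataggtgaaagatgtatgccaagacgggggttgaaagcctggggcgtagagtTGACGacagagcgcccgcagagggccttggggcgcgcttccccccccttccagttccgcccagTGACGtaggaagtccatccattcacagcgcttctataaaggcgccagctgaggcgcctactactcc

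Each of the 3 Nr4a stretches held 4 CRE half-sites. Fos held 2, at 129 and 66 bases before its start, Fosb and Junb held 1 each, and Jun and Fosl2 held 0. Of all 32851 RefSeq stretches of that length, 17.8% held at least 1 half-site and 0.137% held 4 or more. The full CRE (TGACGTCA, which contains the half-site), the AP-1 site (TGACTCA), the Nr4a response element (AAAGGTCA) and the CArG box, each searched on both strands, were found in 0 of the 8, against 1.55%, 4.46%, 1.34% and 1.47% of all stretches. These matches are letters in a fixed window and do not show binding. Sites further upstream or after the start were not searched, so a count of 0 does not mean that a gene lacks the site. Fosl1 and Egr1 had no stretch and were not searched.

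Expression is given as log2 values, and every change is FR minus DMSO, taken between means of n = 3 arrays. Array medians ranged from 5.98 to 6.00 (DMSO) and from 6.01 to 6.07 (FR). Levels of different genes come from different probes and are not compared. Olfactory receptor genes, used mainly by neurons of the nose, served as a measure of background: the 95th percentile of 1027 such genes was 5.65 in DMSO and 5.92 in FR, and their median change was 0.14. Fibroblast markers were bright, with a mean over 10 genes of 10.61 to 10.65 on the arrays of DMSO cells and of 10.69 to 10.74 after FR, although 5 of the 10 rose and 4 fell.

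After 2 days of treatment the family was split. Fosl1, the gene of the Fos-related protein Fra-1, rose strongly, all 3 Nr4a genes fell, and Fos, Fosb, Fosl2, Jun, Junb and Egr1 did not pass the test. Thus 1 of 10 rose and 3 fell at adjusted p under 0.05 (limma, Benjamini-Hochberg over all genes), where 27.9% of all genes passed, 13.4% higher and 14.5% lower. The median change of the 10 was -0.04, against 0.05 over all genes. The DMSO and FR arrays did not overlap for 4 of the 10, the same 4 that passed, and for 43.9% of all genes. The share of members that passed is therefore not far from the background, and the results below concern single genes. In RNA of a culture that may be mixed, fewer cells of a type and less RNA per cell cannot be told apart.

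**Figure D1:**
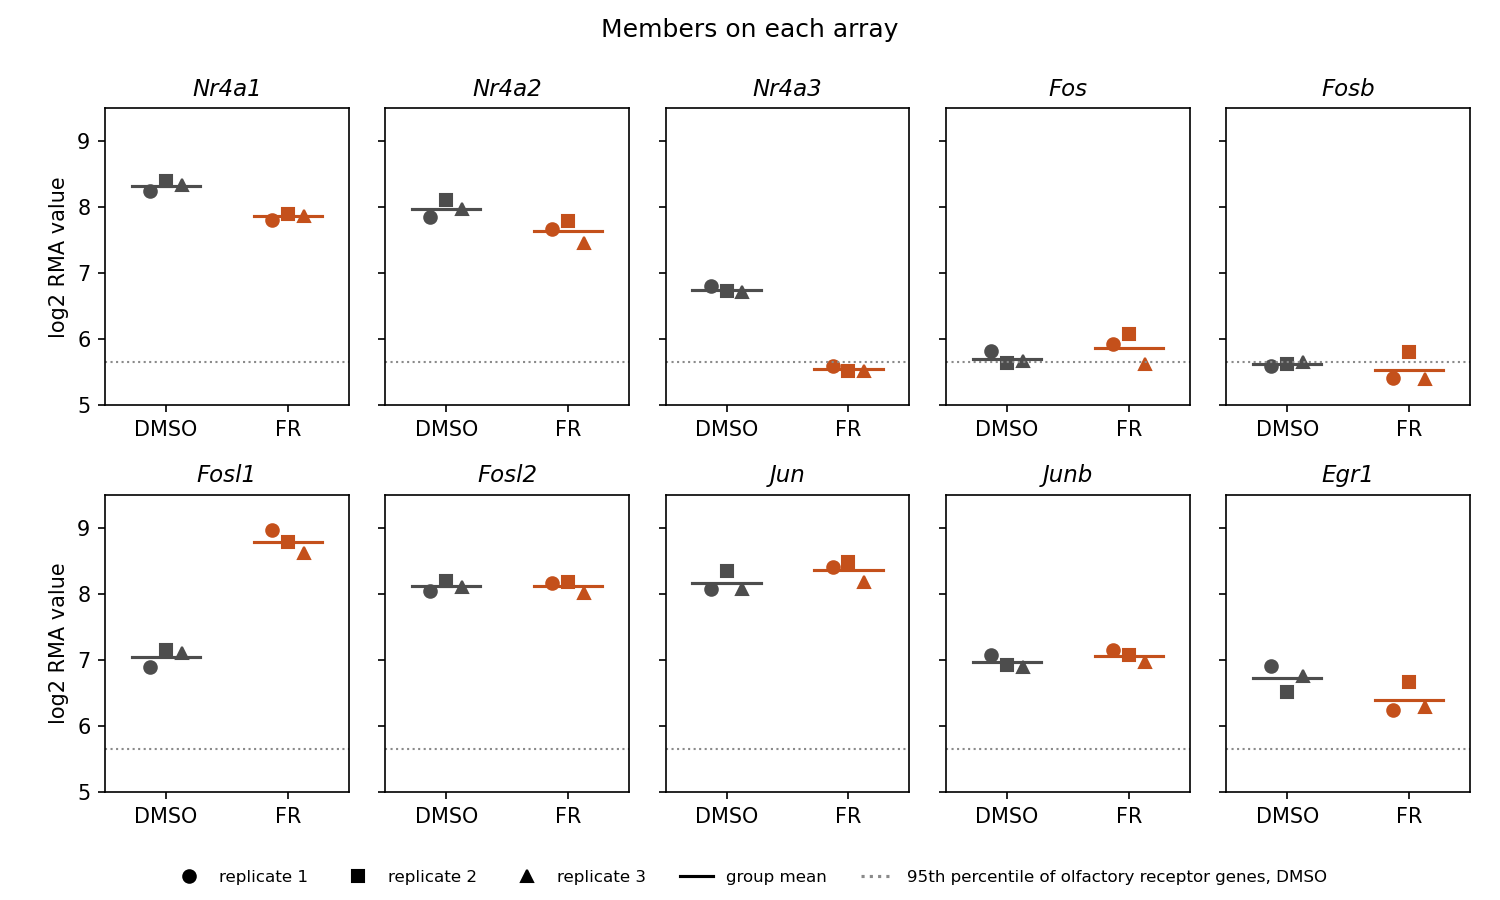
Log2 RMA value (vertical axis) of each of the 10 genes on the 3 DMSO arrays (grey) and 3 FR arrays (orange), with the group mean as a line and the 95th percentile of olfactory receptor genes in DMSO (5.65) dotted. Fosl1 is higher and Nr4a1, Nr4a2 and Nr4a3 are lower on every FR array, while Fos and Fosb lie near the dotted line in both groups.

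Nr4a3, which encodes the receptor Nor-1, showed the deepest fall. Its value was 6.80, 6.72 and 6.72 in the DMSO arrays and 5.60, 5.53 and 5.51 in the FR arrays. All FR arrays lay more than 1 log2 unit under all DMSO arrays, and within each group the values spanned less than 0.1. The change was -1.20 (SE 0.08, 95% confidence interval -1.38 to -1.03, adjusted p = 1.60e-06). Because the FR mean of 5.55 was under the background level of the FR arrays, 5.92, Nr4a3 is given as at least 1.78-fold lower, the DMSO mean of 6.75 set against that level.

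Nr4a1 encodes Nur77, the founding member of the family. It read 8.24, 8.40 and 8.33 with DMSO and 7.81, 7.89 and 7.87 with FR. The groups were separated by 0.35, wider than the spread inside either, and both stayed well above background. The change was -0.46 (95% confidence interval -0.65 to -0.28, adjusted p = 0.00186), or 1.38-fold lower.

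Nr4a2 encodes Nurr1, best known for its role in dopamine neurons. Its values were 7.85, 8.11 and 7.97 in DMSO and 7.67, 7.79 and 7.46 in FR. The groups came within 0.06 of each other, less than the range of 0.33 among the FR arrays. The change was -0.34 (95% confidence interval -0.57 to -0.10, adjusted p = 0.0385), or 1.26-fold lower. Nr4a2 no longer passed after quantile normalization (adjusted p = 0.104) or cyclic loess (0.0937), nor with DMSO replicate 2 (0.140), DMSO replicate 3 (0.0902), FR replicate 1 (0.0614) or FR replicate 3 (0.122) left out.

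Whether the falls of Nr4a1 and Nr4a2 differed in size was not settled. The changes of Nr4a1 and Nr4a2 differed by 0.13 when taken within each array (exact two-sided permutation test over the 6 arrays, p = 0.4), a test whose smallest p with 3 arrays against 3 is 0.1. No difference is given for Nr4a3, since its FR value was under background. Its bound, at least 0.83 lower, lay beyond the intervals of Nr4a1 (-0.65 to -0.28) and Nr4a2 (-0.57 to -0.10). That bound carries no interval of its own.

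**Figure D2:**
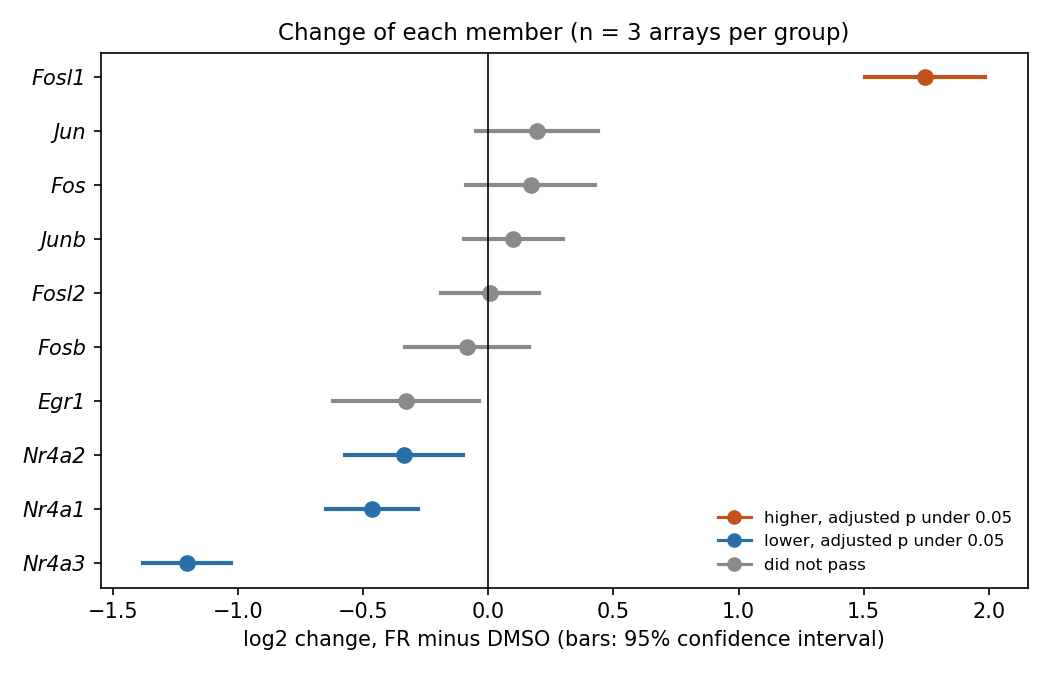
Log2 change of each gene (FR minus DMSO, horizontal axis) with its 95% confidence interval from limma, n = 3 arrays per group. Fosl1 at 1.75 and Nr4a3 at -1.20 stand far from 0, Nr4a1 and Nr4a2 lie lower by less, and the intervals of Fos, Fosb, Fosl2, Jun and Junb include 0.

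Fosl1 was the AP-1 gene that rose. Its product Fra-1 lacks the C-terminal activation domain of Fos and accumulates later and for longer than Fos after stimulation. Fosl1 read 6.88, 7.14 and 7.10 in the DMSO arrays and 8.96, 8.78 and 8.62 in the FR arrays. The lowest FR array was 1.48 above the highest DMSO array. The change was 1.75 (SE 0.11, 95% confidence interval 1.51 to 1.99, adjusted p = 9.66e-07), a 3.35-fold rise, and it ranked 80 among the 2671 genes that rose.

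The other Fos-related gene, Fosl2, encodes Fra-2. It read 8.04, 8.19 and 8.10 with DMSO and 8.17, 8.18 and 8.005 with FR, and the groups overlapped. The change was 0.01 (95% confidence interval -0.19 to 0.20, adjusted p = 0.961), an interval that leaves room for a shift of about 0.2 either way. The difference between the changes of Fosl1 and Fosl2, taken within arrays, was 1.74, and the within-array differences had SDs of 0.08 in DMSO and 0.10 in FR (n = 3). An exact permutation test of it gave p = 0.1, the smallest that this test can give with 3 arrays against 3.

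Fos itself, the prototype of the family, was dim. It read 5.82, 5.64 and 5.67 in DMSO and 5.93, 6.08 and 5.62 in FR, values near the background level in both groups. Its lowest array of all was an FR array, and so was its highest. The change was 0.17 (95% confidence interval -0.09 to 0.43, adjusted p = 0.306). Fosb, whose shorter splice form is known for building up in neurons, read 5.60, 5.62 and 5.66 in DMSO and 5.42, 5.81 and 5.40 in FR. Both Fosb means, 5.63 and 5.54, were under 5.65, so a change in Fosb was not detectable at this signal (-0.09, 95% confidence interval -0.33 to 0.16, adjusted p = 0.594).

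The Jun genes encode the partners of the Fos proteins. Jun read 8.08, 8.35 and 8.08 in DMSO and 8.41, 8.49 and 8.18 in FR. The FR mean was higher, but DMSO replicate 2 lay above FR replicate 3 and the groups overlapped. The change was 0.19 (95% confidence interval -0.05 to 0.44, adjusted p = 0.215). Junb, which can act against Jun on some promoters, read 7.07, 6.92 and 6.90 in DMSO and 7.15, 7.08 and 6.97 in FR, a change of 0.10 (95% confidence interval -0.10 to 0.30, adjusted p = 0.432). Neither interval reaches a doubling in either direction.

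Egr1 encodes a zinc finger factor induced by growth factors through SRF. It read 6.90, 6.51 and 6.75 in DMSO and 6.23, 6.66 and 6.28 in FR. FR replicates 1 and 3 lay under all DMSO arrays, while FR replicate 2 lay above DMSO replicate 2. The change was -0.33 (95% confidence interval -0.62 to -0.04, unadjusted p = 0.0305, adjusted p = 0.0885), so Egr1 missed the threshold. It passed without FR replicate 2 (-0.46, adjusted p = 0.0227), without DMSO replicate 2 (adjusted p = 0.0448), with arrays centred on their medians (0.0384) and with dim genes left out (0.0479).

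The spread among the FR arrays was not even across the family. FR replicate 2 was the highest FR array for 7 of the 10 genes and the lowest for 0, and FR replicate 3 was the lowest for 8 of 10 and the highest for 0. Over all genes, FR replicate 2 was the highest for 40.7% and FR replicate 3 the lowest for 40.2%. The median of FR replicate 2 minus the mean of the other FR arrays was 0.14 over the members and 0.04 over all genes. FR replicate 2 was also the highest FR array for 23 of 36 other immediate early genes (63.9%) and 11 of 17 SRF genes (64.7%). In both lists FR replicate 3 was most often the lowest. FR replicate 2 was the highest for 11 of 17 keratinocyte markers (64.7%) and 7 of 11 skeletal muscle markers (63.6%). There, however, FR replicate 1 was most often the lowest. FR replicate 2 was the highest for 8 of 23 cyclic AMP and CREB targets (34.8%) and 0 of 7 adipocyte markers. It was the highest for 3 of 14 kinase genes upstream of AP-1 (21.4%) and 2 of 8 melanocyte markers (25.0%). A high FR replicate 2 is thus not particular to immediate early genes, nor found in every list. The genes of a list are not independent, and no test was made of this order.

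**Figure D3:**
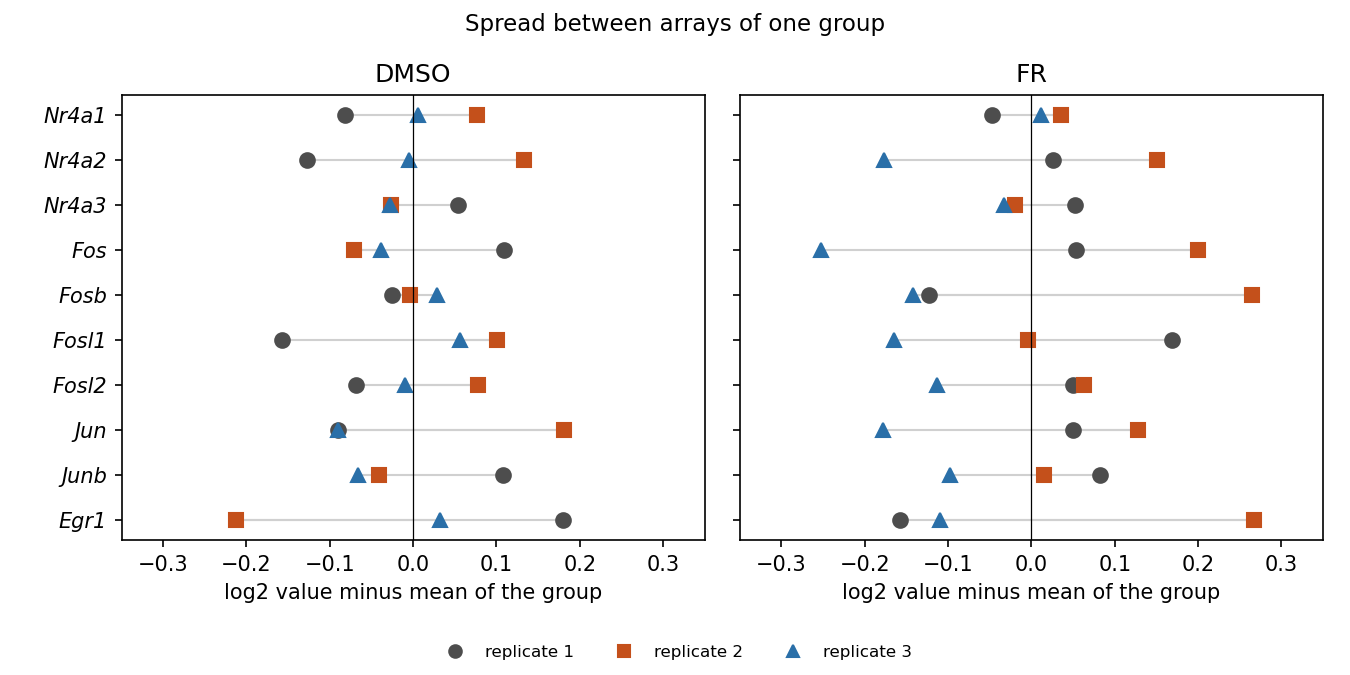
Log2 value on each array minus the mean of its group (horizontal axis) for the 10 genes, DMSO at left and FR at right, with a symbol for each replicate number. In FR, replicate 2 is the highest array for 7 genes and replicate 3 the lowest for 8.

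Genes of the same pathways were taken from lists chosen by function, with earlier results of these data known. Some genes belong to more than 1 list. Over all genes, the share that passed was 27.9%. In the lists it was 7.14% for leucine zipper partners and for kinase genes, 42.9% for nuclear receptors and 44.4% for other immediate early genes. It was 55.6% for the ERK list, 65.2% for cyclic AMP, 66.7% for AP-1 targets, 75.0% for Egr1 and 82.4% for SRF. Among other leucine zipper partners, 1 of 14 measured fell and 0 rose (median change 0.07). That gene was Jdp2, which encodes a repressor that pairs with Jun. Jdp2 read 8.01, 8.08 and 7.92 in DMSO and 6.90, 6.92 and 6.69 in FR, a 2.25-fold fall (change -1.17, adjusted p = 5.71e-06). The DMSO arrays all lay above the FR arrays. Jund and Atf3 did not pass, with changes of -0.13 and 0.08.

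Other immediate early genes went both ways. Of 36 measured, 8 rose and 8 fell, with a median change of 0.02. Myc, the growth regulator, rose 3.003-fold (9.04, 9.06 and 9.02 in DMSO against 10.64, 10.54 and 10.71 in FR, adjusted p = 2.89e-07). Gem, the gene of a small GTPase, rose 2.89-fold. Ccn1, which encodes a matrix-bound signalling protein, was 3.21-fold lower (9.89, 9.93 and 9.95 against 8.16, 8.36 and 8.20). Gadd45b, a stress response gene, was 1.83-fold lower. Egr2, the relative of Egr1, had a change of -0.26 that did not pass (adjusted p = 0.152).

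Of 23 targets of cyclic AMP and CREB other than the Nr4a and Fos genes, 11 rose and 4 fell, with a median change of 0.26, against 0.05 over all genes. Crem, the gene of cyclic AMP-responsive repressors, rose by 1.08 (adjusted p = 3.03e-05), and Ppargc1a, the gene of a coactivator of energy metabolism, was at least 1.56-fold higher, its FR mean of 6.29 set against the background level of 5.65. The second probe set of Ppargc1a also read higher with FR, at 5.64 against 4.91, within the background range. Gem belongs to this list too. Also higher were Id1 (1.20), Pde10a (1.14), Pde4b (0.62), Ptgs2 (0.60), Sst (0.55), Nfil3 (0.46), Pde4d (0.44) and Dusp1 (0.38). The vasopressin receptor gene Avpr1a was 2.82-fold lower and the phosphate transporter gene Slc20a1 2.79-fold lower. The others that fell were Rgs2, with a change of -0.77, and Bdnf. Bdnf was at least 1.18-fold lower, as its FR mean of 5.71 lay under background. Per1 and Sik1 did not pass, with changes of 0.18 and 0.26. The same arrays therefore held higher values of Crem and lower values of Rgs2 and of all 3 Nr4a genes.

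Of 17 SRF cofactors and targets measured, 14 fell and 0 rose, with a median change of -0.69. The changes were -2.04 for the LIM protein gene Fhl2, -1.94 for the actin-binding gene Tagln, -1.74 for the smooth muscle actin gene Acta2 and -1.68 for Ccn1. Srf itself fell by 0.48 (adjusted p = 0.00629). Its growth factor-linked partners Elk1, Elk3 and Elk4 fell as well, with changes of -0.36, -0.69 and -0.36. The other cofactors of the list, Mrtfa, Mrtfb and Myocd, did not pass, with changes of -0.14, 0.16 and 0.04. Myocd lay within the background range.

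Feedback and target genes of the ERK kinases, which sit upstream of Fos, Fosl1 and Egr1, were divided. Of 18 measured, 7 rose and 3 fell, with a median change of -0.01. Besides Myc, the apoptosis-linked gene Phlda1 rose by 1.13 and the Ets factor gene Etv5 by 0.74. The 3 that fell were the cyclin gene Ccnd1 (-1.29), the phosphatase gene Dusp4 (-0.66) and the ERK inhibitor gene Spred3 (-0.33). Spred3 no longer passed with DMSO replicate 1 (adjusted p = 0.0553) or DMSO replicate 3 (0.0652) left out.

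Beside the rise of Fosl1, 9 of 18 measured genes known as AP-1 targets fell and 3 rose, with a median change of -0.41. The collagenase gene Mmp13 was 2.54-fold lower (7.53, 7.41 and 7.87 in DMSO against 6.31, 6.38 and 6.09 in FR), and Ccnd1 and Tgfb1, the gene of the TGF-β1 ligand, had changes of -1.29 and -0.96. The 3 that rose were the stromelysin gene Mmp3 (1.05), the membrane linker gene Ezr (0.65) and the metallothionein gene Mt2 (0.39). Of 12 Egr1 corepressor and target genes measured, 5 fell and 4 rose (median 0.00). The tissue factor gene F3 fell by 1.86 and the thrombospondin gene Thbs1 fell by 1.12, while the growth factor gene Igf2 rose by 1.69. The genes Nab1 and Nab2, whose products bind Egr1 as corepressors, fell too, with changes of -0.54 and -0.40.

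**Figure D4:**
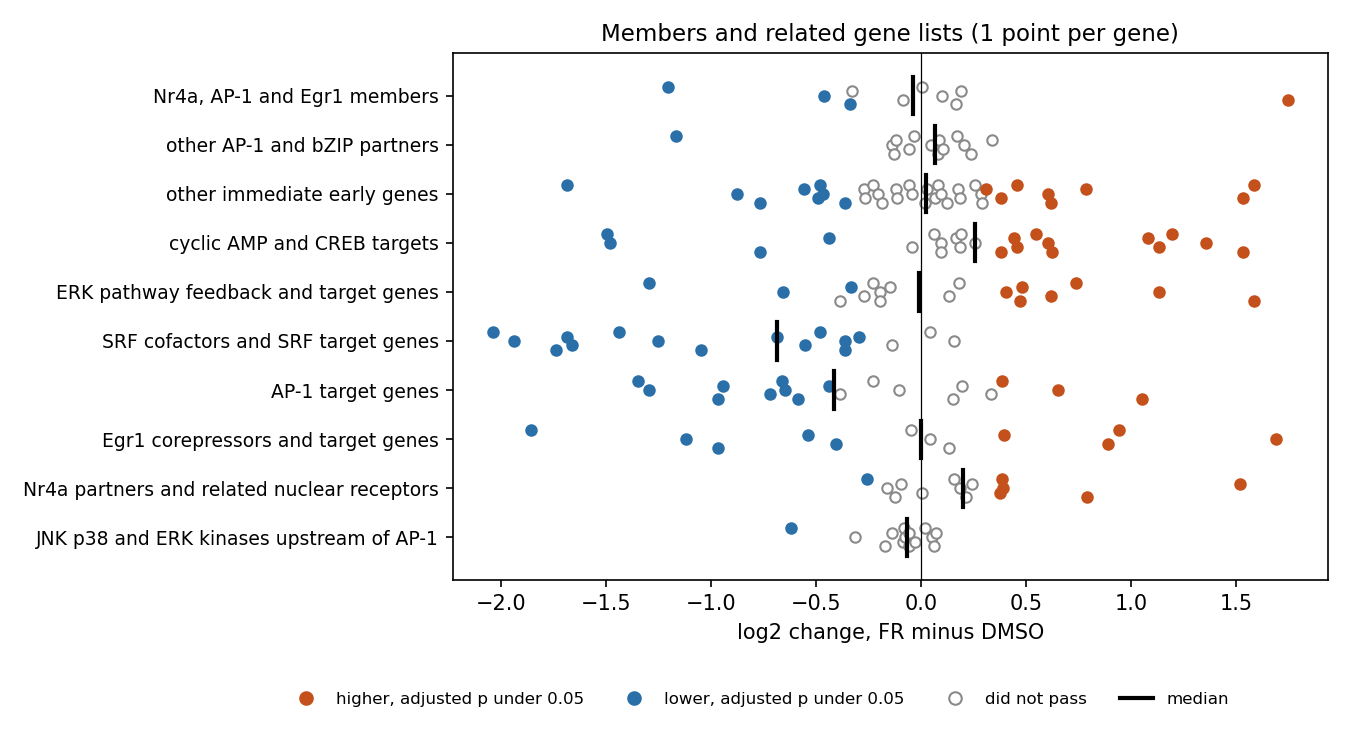
Log2 change (FR minus DMSO, horizontal axis) of the 10 members and of each gene in 9 related lists, 1 point per gene, filled where adjusted p was under 0.05, with the list median as a black bar. The SRF list lies almost wholly below 0 with 14 of 17 lower, while the cyclic AMP list has 11 higher and 4 lower.

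Markers of other cell types moved with the treatment beside these genes. Of 17 keratinocyte markers 14 rose and 0 fell, and their mean level per array was 6.02 to 6.12 with DMSO and 7.03 to 7.17 with FR. Adipocyte markers rose in 7 of 7 cases (7.15 to 7.22 against 9.06 to 9.24) and skeletal muscle markers in 9 of 11 with 0 lower (5.90 to 6.04 against 6.77 to 6.89). Endothelial and melanocyte markers each rose in 3 of 8 cases and fell in 1, so 50.0% of each list passed. The mean level of both lists lay under background on every array. It was 5.39 to 5.43 in either group for endothelial markers. For melanocyte markers it was 5.52 to 5.59 with DMSO and 5.57 to 5.68 with FR. For leukocytes, 3 of 10 markers passed as higher and 0 as lower. Of all genes, 13.4% passed as higher, and 27.9% passed in either direction. The mean level of the leukocyte list lay under background on every array (5.17 to 5.28 with DMSO and 5.35 to 5.49 with FR). Fosl1 is also used by keratinocytes, and the part of any of these cell types in the changes of Fosl1 or the Nr4a genes was not tested.

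The genes whose values over the 6 arrays were most like those of Fosl1 were Bmp1, the gene of a procollagen protease, Dnase1l2, the gene of a DNA-degrading enzyme of skin, and Timm9, the gene of a mitochondrial import chaperone. Their Pearson r was 0.9995, 0.9995 and 0.9993. In total 159 genes reached r of 0.99, and the value is set mainly by the difference between the groups that all these genes share. Bmp1 rose by 0.47 and Timm9 by 0.70, while the Dnase1l2 means, 5.43 in DMSO and 5.83 in FR, both lay under the background level of their group.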

How the data were processed

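Expression was measured on 6 one-colour Affymetrix arrays, 3 DMSO and 3 FR, grouped by their titles. The authors deposited log2 values for 35556 probe sets, made by RMA in the oligo package per the submitters' processing notes, but the sources used here name no version and no build. RMA usually includes background correction, quantile normalization and a summary over the probes of a set.

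Of the probe sets, 21789 had 1 gene symbol in the platform annotation, 1621 had several and were left out, and 12146 had none. For genes with more than 1 probe set, that of the highest mean over the 6 arrays was kept, giving 19938 genes. The test was limma's moderated test (version 3.58.1, R 4.3.3, FR minus DMSO, two-sided, group as the only term, Benjamini-Hochberg over all genes, threshold 0.05), without a filter, and the method was tested on simulated data. The number of arrays limits precision: the median standard error of a change was 0.10. There were 0 missing values and 0 identical array pairs. Scan batches were not analysed here.

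The members and gene lists were chosen with earlier results of these data known. Named are all 10 members, from each related list up to 4 passing genes, those of largest change, every gene of a list of which 3 or fewer passed in 1 direction, and the 3 genes most like Fosl1. Jund, Atf3, Egr2, Crem, Srf, the Elk genes, the Rxr genes, Nab1 and Nab2 were added after their values were seen. So were Rgs2, Bdnf, Per1, Sik1, Mrtfa, Mrtfb, Myocd, Id1, Pde10a, Pde4b, Ptgs2, Sst, Nfil3, Pde4d and Dusp1. Alternatives were other normalizations, a dim filter, other uses of probe sets, other variance models, array weights, a replicate block and leaving out each array.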

Additional observations from a re-analysis of the deposited data

How the results depend on the processing

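Over the 15 alternatives, Fosl1 (change from 1.66 to 1.84), Nr4a3 (-1.26 to -1.18) and Nr4a1 (-0.51 to -0.36) passed under all of them. The number of members that passed ranged from 3 to 5. Nr4a2 missed the threshold with quantile normalization (change -0.24, adjusted p = 0.104) and cyclic loess (-0.24, 0.0937), and in 4 of the fits that left out 1 array, with changes from -0.41 to -0.25 over all 6 such fits. Egr1 passed with arrays centred on their medians (-0.38) and with dim genes left out (-0.33, where fewer genes were tested), and ranged from -0.46 to -0.24 when 1 array was left out. Fosl2, near 0, changed sign with centring (-0.040) and ranged from -0.027 to 0.064 with 1 array left out, reaching -0.027, -0.018 and -0.025 without DMSO replicate 1, FR replicate 1 and FR replicate 2. The cause of these losses and gains was not tested. Fosb could not be fitted with dim genes left out. Of 33 related genes named by the rule above, 31 kept their call throughout, and 2, Spred3 and Nr1d2, lost it under at least 1 alternative. That rule mostly favours large changes. Genes added after their values were seen, among them Crem, Srf, the Elk genes and Rgs2, were not followed through the alternatives.

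Centring moved the share of higher calls from 48.0% of 5559 genes to 37.1% of 5407. The labels do not say whether a replicate number pairs samples. Deviations of same-numbered arrays correlated with r of -0.07, 0.05 and -0.03, and those of differently numbered arrays with r from -0.08 to 0.12. These values cannot tell whether samples were paired. With the replicate number as a block, 4977 genes and 4 members passed, and Nr4a2 kept its call (adjusted p = 0.0369). Signal over background limits Fos, Fosb and the FR level of Nr4a3.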

Other observations

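Beside the fall of the Nr4a genes, 5 of 14 measured genes of other nuclear receptors and their coregulators rose and 1 fell, with a median change of 0.20. Nr2f1, the gene of the receptor COUP-TFI, read 6.38, 6.38 and 6.63 in DMSO and 8.08, 7.80 and 8.07 in FR, a 2.87-fold rise (adjusted p = 2.37e-06). Nr2f2, the gene of the related COUP-TFII, rose 1.73-fold, the coactivator gene Ncoa1 by 0.39 and the clock receptor gene Nr1d1 by 0.39. The RXR genes encode partners with which Nr4a1 and Nr4a2 can pair: Rxrg rose by 0.37 within the background range, and Rxra and Rxrb had changes of 0.24 and 0.16 that did not pass. Nr1d2, the second clock receptor gene, fell by 0.26, a call lost under 8 of 15 alternatives, 2 of them other normalizations.

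Of 14 genes of the ERK, JNK and p38 cascades measured, 1 fell and 0 rose, with a median change of -0.07. The gene that fell was Map2k1, which encodes the ERK kinase MEK1 (8.78, 8.63 and 8.74 in DMSO against 8.29, 8.05 and 7.95 in FR, change -0.62, adjusted p = 0.00115).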
